A study of Homo sapiens with 6 samples.

Results

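The histone genes of SNU-387 cells fall into 2 classes, the replication-dependent genes and the genes of histone variants. They were chosen by symbol, as protein-coding genes named H1- or named H2AC, H2BC, H3C or H4C with a number, together with H2AZ1, H2AZ2, H2AX, H2AJ, MACROH2A1, MACROH2A2, H3-3A and H3-3B. The rule found 81 genes among the 58219 gene identifiers of each count file, 69 of them replication-dependent and 12 variant. H1-1 to H1-6 were placed with the replication-dependent genes, and the replacement H1 genes with the variants.

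SNU-387 is an established line from a human pleomorphic hepatocellular carcinoma. Cells that stably express a short hairpin RNA against YES1, a kinase related to SRC (shYES1, n = 3), were compared with cells that stably express a non-target hairpin (shNT, n = 3), by sequencing of stranded libraries made from poly(A) RNA. All 6 libraries come from this 1 line with no other treatment in the labels, and the sources used here do not give the sequence of the YES1 hairpin or how many were used. Nothing in the labels says that libraries of a group came from separate cultures, so p-values here reflect only the spread between these libraries, which may be technical.

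The libraries held 11290889 to 18944148 gene reads each. YES1 itself averaged 44.1 ± 1.70 CPM in shYES1 and 179 ± 1.65 CPM in shNT (SD, n = 3 each). CPM is the normalised read count, the reads of a gene relative to the gene reads of its library, with TMM factors applied. Of the hepatocyte markers, TTR and HNF4A had no reads in any library, and ALB and APOA1 stayed below 0.05 CPM in both group means. AFP averaged 0.469 CPM in shYES1 and 0.318 CPM in shNT, and SERPINA1 averaged 16.9 CPM in shYES1 and 19.1 CPM in shNT. The epithelial keratin genes KRT8 and KRT18 were abundant, with KRT8 at 721 CPM in shYES1 and 494 CPM in shNT, while the epithelial marker EPCAM was low, at 0.979 ± 0.216 CPM in shYES1 and 1.43 ± 0.0920 CPM in shNT (edgeR adjusted p = 0.0582). Of markers of other cells, VIM averaged 23.2 CPM in shYES1 and 44.5 CPM in shNT, PECAM1 11.2 CPM in shYES1 and 13.9 CPM in shNT, and PTPRC less than 1 CPM in both, and their part in the results on histone genes was not tested. Across all 14239 genes tested, 65.3% passed an adjusted p under 0.05 (edgeR quasi-likelihood test, Benjamini-Hochberg), 32.5% higher in shYES1 and 32.8% lower, and the median log2 fold change was -0.0047. These were 4623 genes higher and 4676 lower, against 5799 higher and 3762 lower when libraries were scaled by their size alone. DESeq2 called 3946 genes higher and 4007 lower. Leaving out a library gave 4342 to 4500 higher and 4409 to 4584 lower, of 14298 to 14668 tested. In 67.9% of tested genes the 3 shYES1 libraries did not overlap the 3 shNT libraries. Every count of histone genes below is read against this background.

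Histones package DNA into nucleosomes, in which the core histones H2A, H2B, H3 and H4 form the spool and the linker histone H1 binds where DNA enters and leaves. Replication-dependent histone genes lie in clusters, mostly lack introns and are transcribed in S phase, and their messenger RNA normally ends in a conserved stem-loop instead of a poly(A) tail. Variant genes are scattered, mostly contain introns, are transcribed throughout the cell cycle and give polyadenylated RNA, so libraries made from poly(A) RNA capture the 2 classes differently. In bulk RNA, fewer cells in S phase and less RNA per cell cannot be told apart.

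The stem-loops are shown because they mark the RNA end that a poly(A) library is not designed to capture. They were read from the GENCODE 29 transcripts on GRCh38, 5′ to 3′ on the gene's strand, with the 16-base stem-loop in capitals and the flanking bases in lower case. The letters searched were GGNNCTNNNNAGNNCC with paired arms, downstream of the stop codon. The coordinates are those of the stem-loop.
H2AC6, chr6:26124669-26124684, plus strand: ccaaaGGCTCTTTTCAGAGCCcccct
H2BC4, chr6:26123472-26123487, minus strand: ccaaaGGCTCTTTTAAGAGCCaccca
H3C6, chr6:26225596-26225611, plus strand: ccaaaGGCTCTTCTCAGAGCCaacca
H2AC11, chr6:27133515-27133530, plus strand: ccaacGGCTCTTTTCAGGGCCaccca
H4C8, chr6:26285131-26285146, minus strand: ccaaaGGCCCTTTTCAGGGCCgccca
H2AX, chr11:119094898-119094913, minus strand: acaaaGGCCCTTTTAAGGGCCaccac

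The form printed for H2AC6 was found in 17 replication-dependent genes, that of H4C8 in 5 genes, all of them H4 genes, and that of H2BC4 in 4 genes, including H2BC5. The forms of H3C6 and H2AC11 were each found in 1 gene. In all, 31 of the 35 replication-dependent genes whose annotated transcript continues past the stop codon held a stem-loop, 22 to 67 bases after it. Of the 12 variant genes, H2AX alone held one, 49 bases after its stop codon. The other 34 replication-dependent models end at the stop codon and hold no bases in which to look.

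Most replication-dependent genes were at or near 0 in these libraries. Of the 69, 14 had no read in any library. Among 11 of these, 0 of 89076349 gene reads allows up to 0.0337 CPM (3 counts over the 6 libraries, counting error only), except in H3C4, H2AC7 and H2AC17. Exons of these 3 genes overlap those of another gene on the same strand, so their 0 is uncertain and sets no limit. The remaining 3 of the 14, H2AC18, H3C14 and H3C15, share all their 50-base stretches with other transcripts. Reads that map to several places are counted for no gene, so 0 reads sets no limit on the level of H2AC18, H3C14 and H3C15. In all, 12 of the 69 share over 50% of these stretches, H2BC12 alone among them tested, and their counts are uncertain. A further 20 had 1 to 9 reads in all, and 17 passed the filter on low counts. The 52 that did not pass had at most 55 reads over the 6 libraries, and the highest 3 of them were H2BC6 with 55 reads, H2AC13 with 46 and H4C9 with 44. The 17 that passed held 96.9% of the summed CPM of the class in shYES1 and 95.4% in shNT. By family, 1 of 6 H1 genes, 3 of 17 H2A genes, 8 of 18 H2B genes, 2 of 13 H3 genes and 3 of 15 H4 genes passed. They lie on chromosome 6 (13 genes, among the 55 replication-dependent genes between positions 25726132 and 27893843 of GRCh38), chromosome 1 (3 genes) and chromosome 12 (1 gene).

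Genes with a longer annotated 3′ end had more reads. Of the 25 replication-dependent genes whose longest coding model runs more than 150 bases past the stop codon, 14 passed the filter, with a median of 112 reads per gene over the 6 libraries. Of the 34 whose model ends at the stop codon, 2 passed, H2BC12 and H1-2, and the median was 2.5 reads. The 10 genes with 1 to 150 annotated bases past the stop codon had a median of 9 reads, and H4C3 passed. A poly(A) signal (AATAAA or ATTAAA) lay within the last 50 bases of a coding transcript in 22 replication-dependent genes. Of these 22, 12 were among the 17 that passed. A signal was also found in 10 of the 12 variants. It was looked for only in transcripts that continue past the stop codon. The 34 models that end there, H2BC12 and H1-2 among them, could therefore show none. H2BC4, H2BC5, H2BC11 and H2BC15 each have a spliced coding transcript without the stem-loop, and all 4 passed. A shorter model also leaves less sequence in which a read can be counted, and its part in these counts was not tested.

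**Figure D1:**
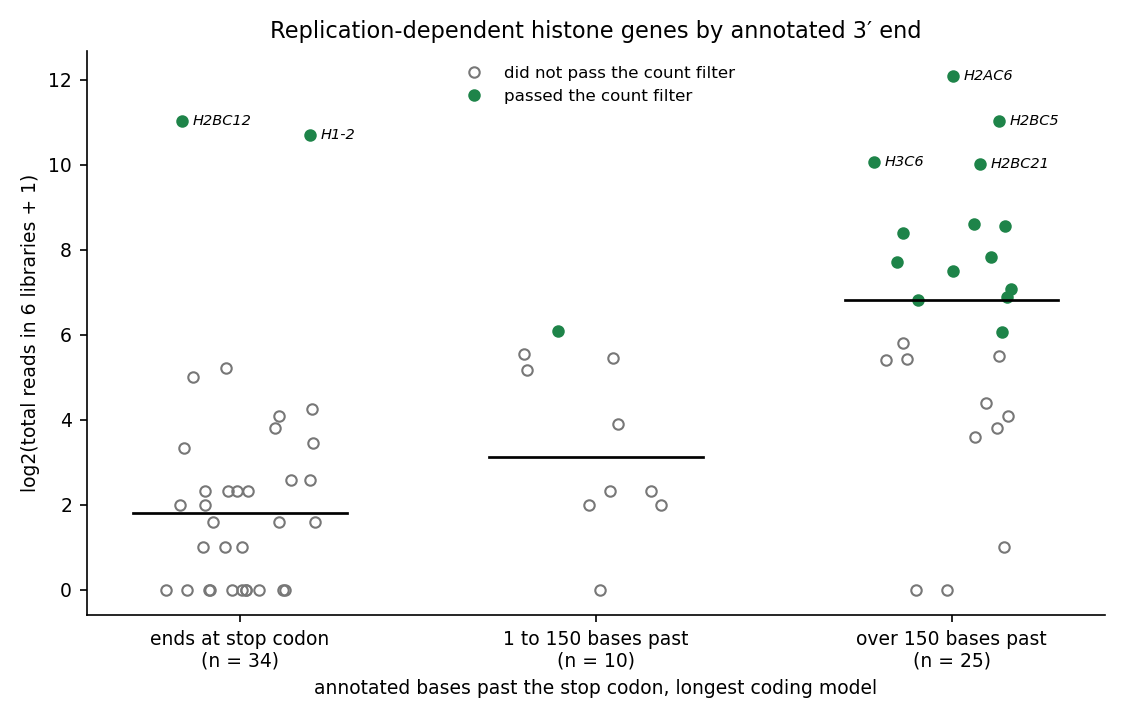
Each point is 1 of the 69 replication-dependent histone genes, placed by the annotated bases past its stop codon; the vertical axis is log2 of its total reads in the 6 libraries plus 1, and black lines are medians. Filled points passed the count filter: 14 of 25 genes with over 150 bases past the stop codon, 1 of 10 in the middle bin and 2 of 34 (H2BC12 and H1-2) whose model ends there.

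Per kilobase of annotated exon (RPKM, computed from TMM-scaled counts), H3-3B, a variant gene that encodes the replacement histone H3.3, had 58.9 ± 0.482 RPKM in shYES1 and 63.4 ± 0.703 RPKM in shNT. Among replication-dependent genes the highest was H2BC12, which encodes an H2B, with 69.4 ± 4.39 RPKM in shYES1 and 54.2 ± 1.96 RPKM in shNT. By these lengths H2BC12 was above H3-3B in shYES1 and below it in shNT. The merged exons of H3-3B, from 13 transcripts, have 6134 bases, and a shorter length would raise its level. Whether this order holds under other lengths was not tested. The model of H2BC12 has 381 bases and holds the coding sequence only. Of its 50-base stretches, 74.1% occur in other transcripts, mostly in H2BFS, so the level of H2BC12 is uncertain. Next in the class came H1-2 with 32.1 ± 4.04 RPKM in shYES1 and 25.7 ± 0.620 RPKM in shNT, H2AC6 with 30.9 ± 1.74 RPKM in shYES1 and 26.7 ± 2.18 RPKM in shNT, and H2BC5 with 29.8 ± 1.55 RPKM in shYES1 and 23.6 ± 0.982 RPKM in shNT. The SDs of H1-2 and H2AC6, and of H2AC6 and H2BC5, overlapped within each group, so their order is not fixed. No other replication-dependent gene reached 6 RPKM in either group.

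The 2 classes moved differently in their sums. The replication-dependent genes summed to 167, 186 and 178 CPM in shYES1 and to 155, 160 and 163 CPM in shNT. The variants summed to 985, 996 and 994 CPM in shYES1 and to 1225, 1227 and 1250 CPM in shNT. In both sums the groups did not overlap, with shYES1 above shNT for the replication-dependent genes and below it for the variants. Per length, replication-dependent genes held 42.6% ± 1.49 of summed histone RPKM in shYES1 and 31.9% ± 0.239 in shNT (SD, n = 3 each). The choice of gene length moved these shares, to 30.4% in shYES1 and 22.5% in shNT when the longest coding transcript gave the length. Placing every H1 gene in the replication-dependent class gave 66.4% in shYES1 and 59.5% in shNT. No test was run on these sums, since their members were chosen with earlier results known.

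A few genes made up the replication-dependent sum. H2AC6, H2BC12, H2BC5, H1-2, H3C6 and H2BC21, the 6 with the highest mean CPM, held 83.3% of the class in shYES1 and 79.2% in shNT. The remaining 63 genes summed to 26.1, 32.8 and 30.3 CPM in shYES1 and to 31.7, 35.4 and 32.3 CPM in shNT. Without the 6 highest genes, then, the groups overlapped and shYES1 was not above shNT. H2A genes summed to 58.5 ± 3.30 CPM in shYES1 and 53.7 ± 3.72 CPM in shNT, and H2B genes to 77.0 ± 3.25 CPM in shYES1 and 64.6 ± 0.440 CPM in shNT. H3 genes summed to 12.7 ± 0.419 CPM in shYES1 and 15.6 ± 0.391 CPM in shNT, and H4 genes to 7.71 ± 1.59 CPM in shYES1 and 8.14 ± 0.383 CPM in shNT.

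**Figure D2:**
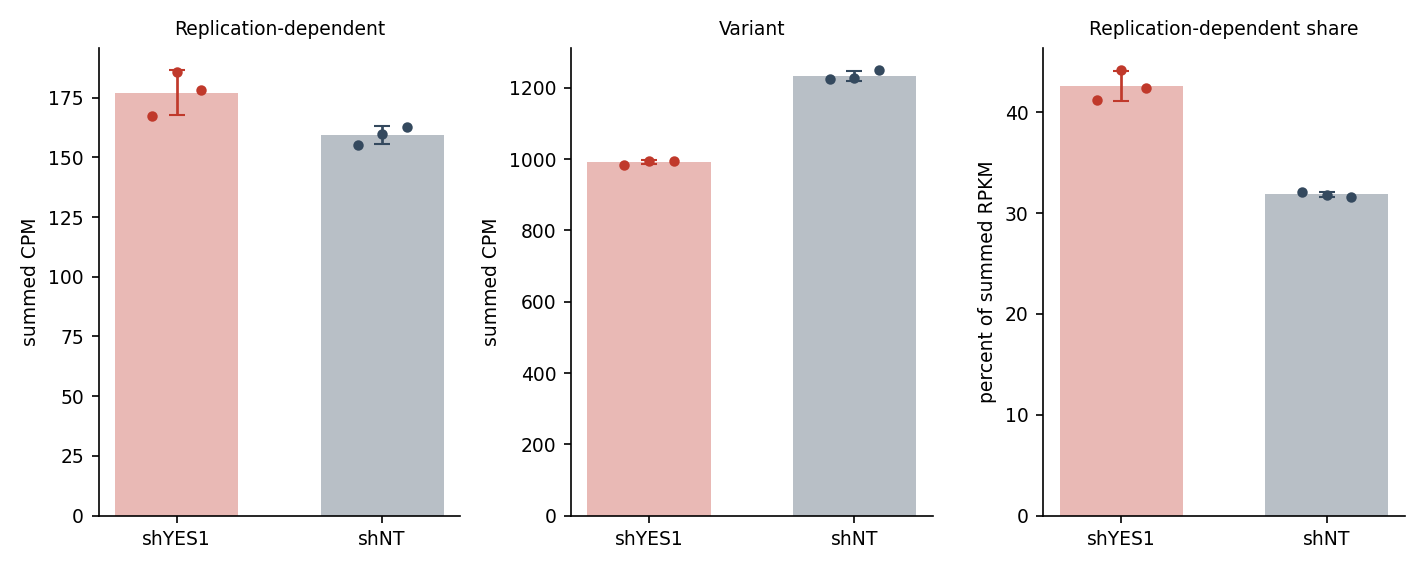
Bars are group means, error bars SD and points the 3 libraries of each group; the left and middle panels give summed CPM of the 69 replication-dependent and 12 variant genes, the right panel the replication-dependent percent of summed histone RPKM. The shYES1 libraries lie above the shNT libraries on the left and right (42.6% and 31.9% on the right) and below them in the middle.

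Of the 17 replication-dependent genes tested, 5 rose, 5 fell and 7 did not pass the test, against a background of 32.5% higher and 32.8% lower over all genes tested. Their median log2 fold change was 0.01, against -0.0047 over all genes. The groups did not overlap for 9 of the 17, against 67.9% of all genes. The 5 genes that rose had mean levels of 3.71 to 48.1 CPM over the 6 libraries, and the 5 that fell had 0.798 to 4.27 CPM. Fold changes below are log2 of shYES1 over shNT with their standard error.

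Among the genes that rose, H1-2 encodes the linker histone H1.2. It had 17.7, 22.6 and 21.5 CPM in shYES1 and 17.0, 16.2 and 16.4 CPM in shNT. Its log2 fold change was 0.31 ± 0.08 (edgeR adjusted p = 0.000654). The groups did not overlap, but shYES1 replicate 1 lay close to the highest shNT library. H2AC6, which encodes a canonical H2A, had 48.2, 53.3 and 53.2 CPM in shYES1 and 41.4, 43.8 and 48.5 CPM in shNT. Here the lowest shYES1 library lay just below the highest shNT library, and the log2 fold change was 0.20 ± 0.05 (edgeR adjusted p = 0.000857).

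The other 3 rises were in H2B genes. H2BC4 had 4.02, 5.73 and 4.75 CPM in shYES1 and 2.42, 3.25 and 2.09 CPM in shNT, with a log2 fold change of 0.89 ± 0.18 (edgeR adjusted p = 1.96e-05). H2BC12 had 26.1, 28.2 and 24.9 CPM in shYES1 and 21.5, 20.1 and 20.3 CPM in shNT, with a log2 fold change of 0.35 ± 0.07 (edgeR adjusted p = 1.21e-05). H2BC5 had 25.0, 27.5 and 25.3 CPM in shYES1 and 19.7, 20.4 and 21.4 CPM in shNT, with a log2 fold change of 0.32 ± 0.07 (edgeR adjusted p = 3.37e-05). In all 3 every shYES1 library lay above every shNT library. H2BC4 changed most, 1.85-fold. The 5 rises kept their direction and their call under all 14 alternatives run.

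Of the 5 falls, H3C10, which encodes a canonical H3, changed most. It had 0.913, 0.941 and 1.17 CPM in shYES1 and 2.10, 1.97 and 2.03 CPM in shNT, a log2 fold change of -0.98 ± 0.25 (edgeR adjusted p = 0.000560). Each shNT library was above each shYES1 library, and the call held under all 14 alternatives. H4C3, an H4 gene, had 0.487, 0.941 and 0.358 CPM in shYES1 and 1.29, 0.757 and 0.951 CPM in shNT, and the groups overlapped at a log2 fold change of -0.85 ± 0.36 (edgeR adjusted p = 0.0368).

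The remaining falls were in 2 H2A genes and an H2B gene. H2AC11 had 2.98, 3.59 and 4.29 CPM in shYES1 and 4.77, 5.15 and 4.82 CPM in shNT (log2 fold change -0.42 ± 0.15, edgeR adjusted p = 0.0142). H2AC25 had 1.77, 1.54 and 1.63 CPM in shYES1 and 2.26, 2.80 and 2.22 CPM in shNT (log2 fold change -0.54 ± 0.21, edgeR adjusted p = 0.0233). H2BC15 had 2.07, 2.22 and 1.79 CPM in shYES1 and 2.34, 2.72 and 3.04 CPM in shNT (log2 fold change -0.45 ± 0.20, edgeR adjusted p = 0.0434). In these 3 genes all shYES1 libraries lay below all shNT libraries, by a narrow margin in H2BC15. Exons of H2BC15 overlap those of H2AC16 on the same strand, so its count is uncertain. With DESeq2 or with scaling by library size alone, only H3C10 was still called lower. The count of falls was 2 without shYES1 replicate 1, 2 without shYES1 replicate 3, 3 without shNT replicate 2 and 3 without shNT replicate 3.

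The 7 replication-dependent genes that did not pass the test were 4 H2B genes, an H3 gene and 2 H4 genes. H3C6 had 11.3, 11.1 and 11.4 CPM in shYES1 and 12.4, 12.6 and 12.8 CPM in shNT. Its groups did not overlap, but the log2 fold change of -0.16 ± 0.09 did not pass (edgeR adjusted p = 0.10). H2BC21 averaged 11.6 ± 1.17 CPM in shYES1 and 11.3 ± 0.192 CPM in shNT, with a 95% interval of the log2 fold change of -0.12 to 0.24. H4C8 averaged 4.49 ± 0.898 CPM in shYES1 and 4.36 ± 0.481 CPM in shNT, and its interval ran from -0.29 to 0.31. H2BC11 averaged 2.46 ± 0.359 CPM in shYES1 and 2.67 ± 0.214 CPM in shNT (interval -0.52 to 0.24). The intervals of H2BC8 (log2 fold change 0.32 ± 0.27), H2BC18 (0.14 ± 0.37) and H4C16 (0.00 ± 0.27) were wider, at means under 1.5 CPM in each group. For these 3 genes a difference of the size seen in H2BC5 lay within the interval, so it was not detectable at this depth.

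**Figure D3:**
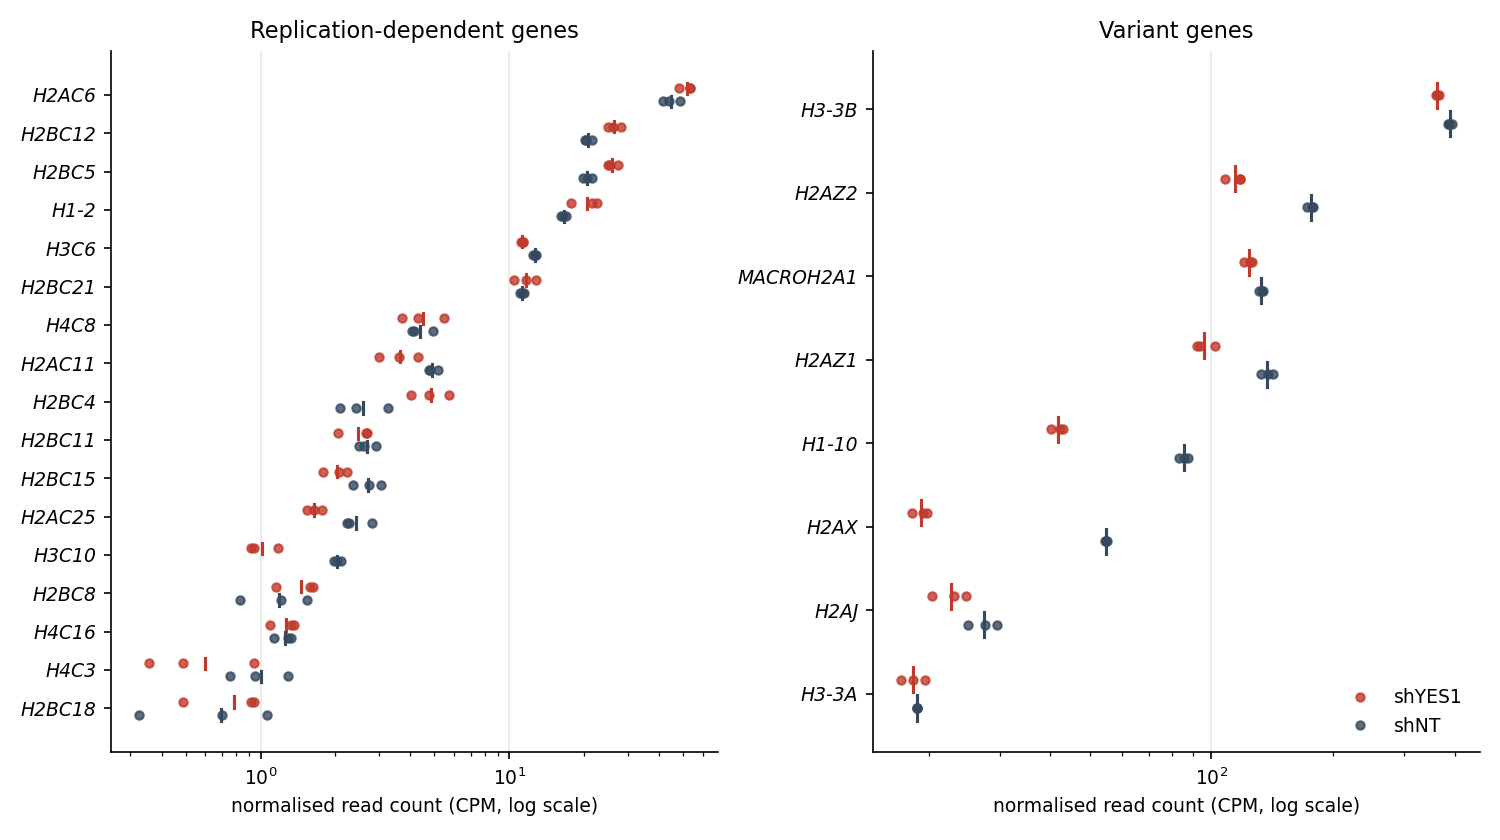
Normalised read counts (CPM, log scale) of 25 histone genes that passed the count filter, 1 point per library and a tick at each group mean, shYES1 above shNT for each gene. The left panel holds the 17 replication-dependent genes, ordered by mean level, where H2BC4, H2BC5 and H2BC12 lie right of their shNT values and H3C10 left of them; the right panel holds 8 variants, where H2AX and H1-10 lie far left of theirs.

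Of the 12 variant genes, 9 were tested. None was higher in shYES1, with all 9 log2 fold changes below 0, and none was called higher with edgeR, DESeq2 or limma-voom. 8 fell and H3-3A did not pass, against a background of 32.8% lower, and the median log2 fold change was -0.24. The groups did not overlap for 8 of the 9, against 67.9% of all genes. H1-7 and H1-8, linker histones of male and female germ cells, had no reads, and MACROH2A2 had 4 reads in all.

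H2AX, the H2A variant that is phosphorylated beside DNA double-strand breaks, changed most. It had 19.8, 19.4 and 18.2 CPM in shYES1 and 54.5, 55.3 and 55.0 CPM in shNT, 2.88-fold lower (log2 fold change -1.53 ± 0.06, edgeR adjusted p = 6.05e-28). Alone among the variants H2AX held a stem-loop, and a poly(A) library is not designed to capture RNA that ends there. H1-10, which encodes the linker histone H1X, had 43.0, 40.1 and 42.2 CPM in shYES1 and 83.3, 85.4 and 87.6 CPM in shNT, 2.04-fold lower (log2 fold change -1.03 ± 0.04, edgeR adjusted p = 1.76e-25). Both pairs of groups were far apart relative to the spread within them.

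The 2 genes of H2A.Z, the variant found at promoters and enhancers, fell by less. H2AZ2 had 108, 118 and 118 CPM in shYES1 and 178, 172 and 177 CPM in shNT (log2 fold change -0.62 ± 0.03, edgeR adjusted p = 2.13e-21). H2AZ1 had 92.2, 102 and 93.9 CPM in shYES1 and 132, 142 and 138 CPM in shNT (log2 fold change -0.52 ± 0.04, edgeR adjusted p = 1.91e-17). In both genes each shYES1 library lay below each shNT library. The calls of H2AX, H1-10, H2AZ1 and H2AZ2 held under all 14 alternatives.

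The other falls were small. H2AJ, which encodes the variant H2A.J, averaged 22.7 ± 2.23 CPM in shYES1 and 27.3 ± 2.27 CPM in shNT (log2 fold change -0.24 ± 0.07, edgeR adjusted p = 0.00176). MACROH2A1, whose product carries a large macro domain and marks the inactive X chromosome, averaged 124 ± 2.88 CPM in shYES1 and 133 ± 1.79 CPM in shNT (log2 fold change -0.10 ± 0.03, edgeR adjusted p = 0.00441). The groups did not overlap in either gene, but in H2AJ the highest shYES1 library (24.8 CPM) lay just below the lowest shNT library (25.0 CPM), a gap much smaller than the SDs.

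H3.3, the H3 that is placed outside replication, is encoded by a pair of genes. H3-3B averaged 361 ± 2.95 CPM in shYES1 and 389 ± 4.31 CPM in shNT (log2 fold change -0.10 ± 0.03, edgeR adjusted p = 0.000328). H3-3A averaged 18.3 ± 1.26 CPM in shYES1 and 18.7 ± 0.0387 CPM in shNT, with overlapping groups and a 95% interval of the log2 fold change of -0.19 to 0.10. The H3-3A transcript shares 11.7% of its 50-base stretches with other transcripts, mostly a processed copy, so its reads can be undercounted. Scaling by library size alone moved the median of all genes by 0.097 on the log2 scale, and under it the calls of H2AJ, MACROH2A1 and H3-3B were lost and 4 variants were called lower. MACROH2A1 also lost its call with unstranded counts.

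**Figure D4:**
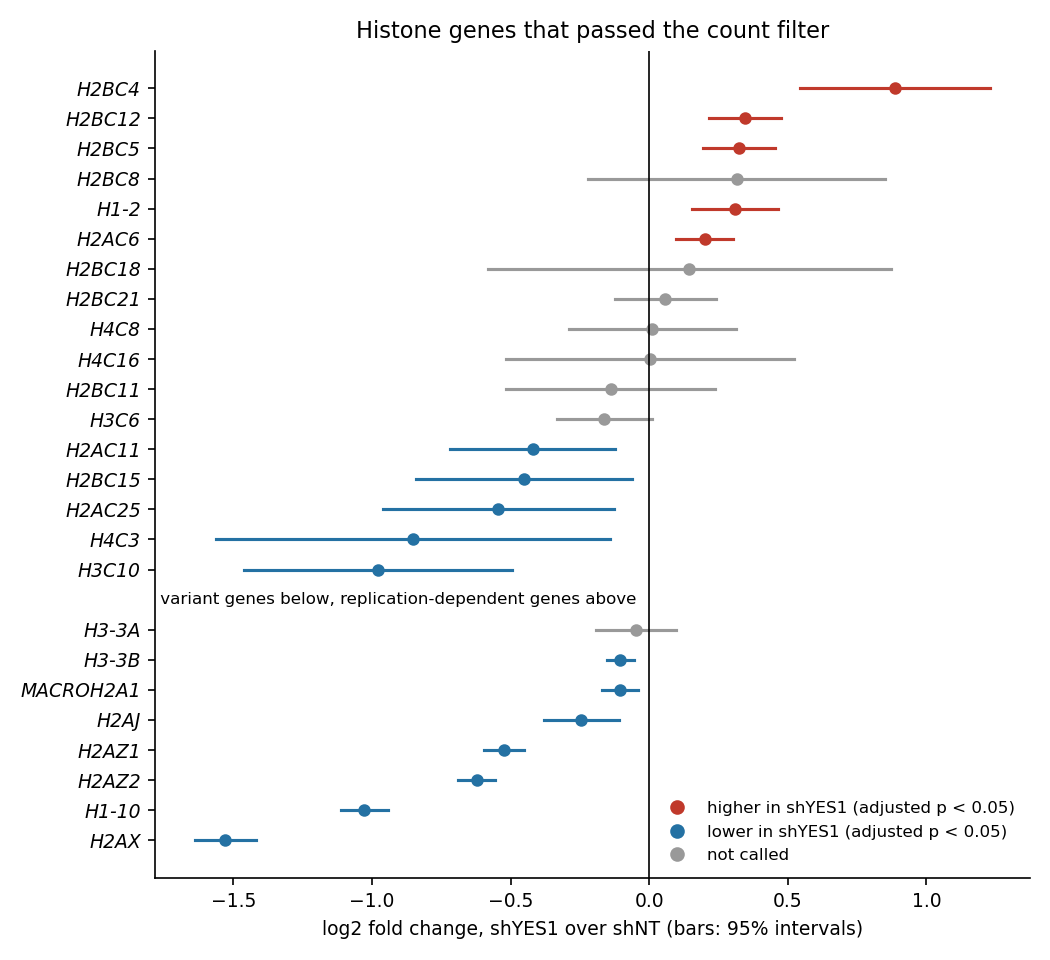
Log2 fold change of shYES1 over shNT for 25 histone genes that passed the count filter, with bars of 95% intervals, red where higher and blue where lower in shYES1 at an edgeR adjusted p under 0.05, and grey where not called. The replication-dependent genes spread on both sides of 0, from H2BC4 at 0.89 to H3C10 at -0.98, while the 8 variants shown lie below 0, from H3-3A at -0.05 to H2AX at -1.53.

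CENPA, the H3 variant of centromeres and outside the rule, averaged 11.8 ± 1.10 CPM in shYES1 and 17.9 ± 0.325 CPM in shNT (log2 fold change -0.59 ± 0.08, edgeR adjusted p = 1.96e-08). Its exons overlap those of SLC35F6 on the same strand, so its count is uncertain.

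Replication-dependent H2A and H2B genes often lie head to head and share a promoter. Within 1000 bases, 12 such pairs of start sites were found, 11 of an H2A with an H2B gene. In 2 pairs both genes were tested. H2BC4 and H2AC6, whose starts lie 218 bases apart, both rose, with log2 fold changes of 0.89 ± 0.18 and 0.20 ± 0.05. H2BC11 and H2AC11, 291 bases apart, had log2 fold changes of -0.14 ± 0.19 and -0.42 ± 0.15, of which only that of H2AC11 passed. In the other 10 pairs 1 gene or none was tested, as for H2BC12 with 2099 reads in all and H2AC12 beside it with 4 reads.

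The promoter between H2BC4 and H2AC6 is shown as the pair in which both genes rose, and it was chosen after their values were seen. It is given on the strand of H2AC6, from RefSeq on GRCh38.p14, as the 200 bases up to the RefSeq start of H2AC6. The GENCODE 29 start of H2AC6, from which the 218 bases were measured, is at 26124145, inside this stretch. Capitals mark, from left to right, a CCAAT box on the other strand, the octamer on the other strand, another CCAAT box on the other strand, a CCAAT box as written and a TATA box.
H2AC6, chr6:26123972-26124171, plus strand: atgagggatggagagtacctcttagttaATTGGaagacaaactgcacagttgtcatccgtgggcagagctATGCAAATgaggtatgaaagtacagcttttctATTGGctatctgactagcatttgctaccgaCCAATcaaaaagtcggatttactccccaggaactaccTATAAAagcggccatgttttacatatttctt

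These motifs were common in the promoters of the family, searched on both strands in windows of 250 bases before to 50 bases after the start (RefSeq, GRCh38.p14, 64 of 69 replication-dependent and 11 of 12 variant genes matched). The octamer ATTTGCAT, a site known to bind the factor POU2F1, was found in 14 of 18 H2B promoters (77.8%) and 11 of 16 H2A promoters (68.8%). It was found in 1 of 30 promoters of H1, H3 and H4 genes, in 1 of 11 variant promoters and in 492 of all 27305 promoters (1.8%). Windows of head-to-head genes can overlap, so a single site can be counted for both the H2A and the H2B gene. The CCAAT box (CCAAT) was in every H2A and H2B promoter, in 66.7% of those of H1, H3 and H4 genes, in 72.7% of variant promoters and in 35.7% of all promoters. The TATA box (TATAAA) was in 65.6% of replication-dependent promoters, 36.4% of variant promoters and 3264 of all 27305 promoters. The 5 genes that rose had the octamer in 3 promoters, and the 4 of the 5 that fell whose promoter was in the table had it in 1, counts too small to separate the calls.

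Factors that make and remove histone messenger RNA were listed apart from the histones. All 22 were tested, of which 4 rose, 11 fell and 7 did not pass, against backgrounds of 32.5% and 32.8%, and their median log2 fold change was -0.10. NPAT, the coactivator of histone genes in histone locus bodies, averaged 18.9 ± 1.01 CPM in shYES1 and 24.9 ± 0.946 CPM in shNT (log2 fold change -0.40 ± 0.07, edgeR adjusted p = 1.02e-06). CDK2, the kinase that acts on NPAT with cyclin E, averaged 20.2 ± 1.03 CPM in shYES1 and 26.4 ± 1.32 CPM in shNT (log2 fold change -0.39 ± 0.07, edgeR adjusted p = 1.65e-06). The cyclin E genes were low, and they were chosen after their values were seen: CCNE1 averaged 2.35 ± 0.240 CPM in shYES1 and 4.45 ± 0.365 CPM in shNT. CCNE2 averaged 1.35 ± 0.502 CPM in shYES1 and 5.77 ± 0.763 CPM in shNT (log2 fold change -2.02 ± 0.19, edgeR adjusted p = 5.28e-13).

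Of the factors that act at the stem-loop, SLBP, which binds it, averaged 31.9 ± 1.18 CPM in shYES1 and 36.2 ± 1.12 CPM in shNT (log2 fold change -0.18 ± 0.05, edgeR adjusted p = 0.00354). Under scaling by library size SLBP did not pass (adjusted p = 0.174). ZNF473, a partner of the U7 particle that directs cleavage, averaged 6.55 ± 0.896 CPM in shYES1 and 10.8 ± 0.464 CPM in shNT (log2 fold change -0.71 ± 0.11, edgeR adjusted p = 1.39e-07). NCBP1, of the nuclear cap-binding complex, averaged 63.0 ± 0.991 CPM in shYES1 and 90.6 ± 0.737 CPM in shNT (log2 fold change -0.52 ± 0.04, edgeR adjusted p = 1.31e-16).

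The 4 rises were small. TUT7, which adds uridines to histone messenger RNA in decay, averaged 90.9 ± 2.85 CPM in shYES1 and 75.7 ± 2.58 CPM in shNT (log2 fold change 0.26 ± 0.04, edgeR adjusted p = 7.51e-08). LSM1, of the decay complex that binds those tails, had a log2 fold change of 0.19 ± 0.06, CPSF3, the nuclease that cuts the 3′ end, 0.13 ± 0.05, and UPF1, a helicase of histone RNA decay, 0.08 ± 0.03. These last 3 calls were lost under several alternatives. The count of rises was 1 without shYES1 replicate 1 and 2 without shNT replicate 1, 2 with DESeq2 and 7 under scaling by library size.

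Histone chaperones and exchange factors, which carry histones and place them in chromatin, were tested for 23 of 24 genes. Of these, 4 rose, 14 fell and 5 did not pass, against backgrounds of 32.5% and 32.8%, with a median log2 fold change of -0.31. ASF1B, which hands new H3 and H4 to the replication fork, averaged 4.91 ± 0.413 CPM in shYES1 and 27.5 ± 1.32 CPM in shNT (log2 fold change -2.47 ± 0.09, edgeR adjusted p = 5.55e-28). CHAF1A and CHAF1B, subunits of the assembly factor CAF-1 at the fork, had log2 fold changes of -0.77 ± 0.07 and -0.80 ± 0.11, where CHAF1B overlaps MORC3 on the same strand and its count is uncertain. SSRP1, a subunit of the FACT complex that handles H2A and H2B, averaged 62.8 ± 1.45 CPM in shYES1 and 132 ± 4.95 CPM in shNT (log2 fold change -1.08 ± 0.04, edgeR adjusted p = 1.06e-28). ANP32E, which removes H2A.Z from chromatin, averaged 43.4 ± 2.17 CPM in shYES1 and 109 ± 1.45 CPM in shNT (log2 fold change -1.34 ± 0.04, edgeR adjusted p = 1.08e-30).

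The 4 rises were in UBN1, UBN2, CABIN1 and ATRX. UBN1, UBN2 and CABIN1 encode partners of HIRA, and their log2 fold changes were 0.29 ± 0.04, 0.49 ± 0.06 and 0.45 ± 0.03. ATRX, which places H3.3 with DAXX, averaged 189 ± 4.92 CPM in shYES1 and 162 ± 6.80 CPM in shNT (log2 fold change 0.22 ± 0.03, edgeR adjusted p = 4.29e-08). HIRA itself averaged 10.5 ± 0.731 CPM in shYES1 and 10.02 ± 0.757 CPM in shNT (log2 fold change 0.07 ± 0.10, edgeR adjusted p = 0.544). DAXX averaged 82.9 ± 2.29 CPM in shYES1 and 79.9 ± 1.42 CPM in shNT (log2 fold change 0.05 ± 0.04, edgeR adjusted p = 0.264). Exons of HIRA overlap those of C22orf39 on the same strand, and exons of DAXX those of another annotated gene. Under scaling by library size, 7 chaperone genes were called higher.

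**Figure D5:**
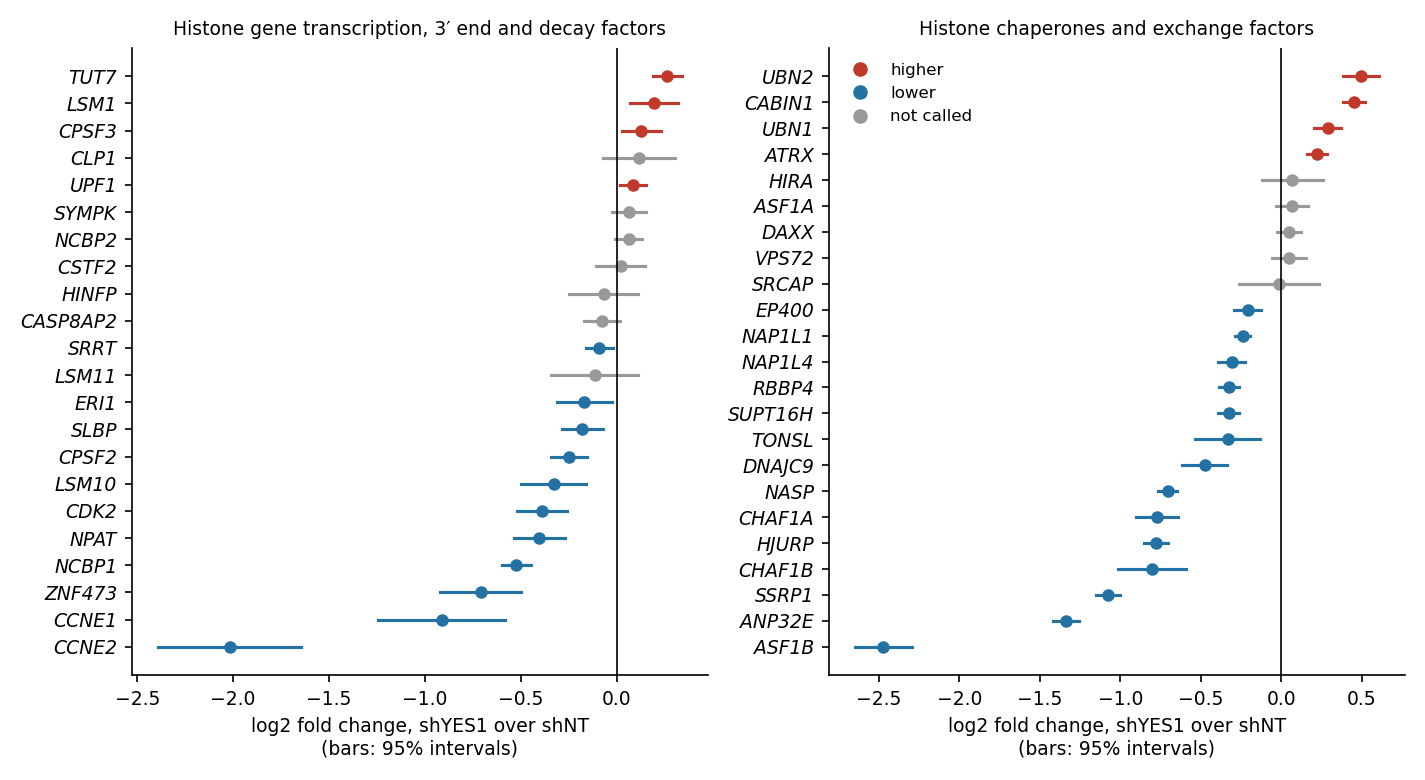
Log2 fold change of shYES1 over shNT with bars of 95% intervals for the 22 tested factors of histone gene transcription, 3′ end formation and RNA decay (left) and the 23 tested chaperones and exchange factors (right), coloured by call as red for higher, blue for lower and grey for not called. On the left 4 genes lie right of 0 and 11 left of it by the test, and on the right 4 and 14, with ASF1B at -2.47 lowest.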

How the data were processed

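Stranded poly(A) libraries of 6 samples were measured. The authors deposited raw counts of reads per gene, unnormalised, for either strand. STAR 2.5.1b on GRCh38, Trimmomatic 0.35 and CASAVA 1.8.2 are named in the submitters' processing notes, with an annotation release not given in the sources used here. Here the reverse-strand column was used, which held 93.5% to 94.0% of stranded gene reads. The 4 entries that name no gene held 19.8% to 20.3% of reads and were left out. Reads that map equally well to several places are counted for no gene.

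Members and lists were chosen with earlier results of these data known. All 81 identifiers matched GENCODE 29, and 4 symbols came from older names in RefSeq. In R 4.3.3, edgeR 4.0.16 (filterByExpr with minimum count 10 and minimum total 15, TMM, robust quasi-likelihood test) tested 14239 genes in all 6 libraries, with Benjamini-Hochberg adjustment over them. The standard error is the log2 fold change over the square root of F. RPKM divides CPM by merged GENCODE 29 exon length. The edgeR step was tested on simulated data. Counts of replicates in a group differed by more than counting error (chi-square per degree of freedom 1.15 to 2.18). The lowest value was that of shYES1 replicates 2 and 3. Such values cannot show that replicates came from separate cultures.

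Named were every tested histone gene but 1 variant, which is in the counts and sums and is not reported here, the 3 highest untested, and per list up to 4 rises and 4 falls at 5 CPM or more, with SLBP, NPAT, CHAF1A, CHAF1B and HIRA in any case. Alternatives tried were DESeq2 1.42.0, limma-voom (limma 3.58.1), RLE or library-size scaling, no filter, 1 CPM in 3 libraries, the replicate number as a block, unstranded counts, leaving out each library, and for class shares other gene lengths and H1 classes.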

Additional observations from a re-analysis of the deposited data

Results flagged for a closer look

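Reads on the strand opposite to a histone gene were outside the comparisons above. Given as CPM without TMM scaling, 19 of the 81 genes had at least 10 such reads in all, and in 5 of them each shYES1 library lay above each shNT library. In H1-10 and H2AX each shYES1 library lay below each shNT library. Exons of the annotated gene H1FX-AS1 overlap those of H1-10 on the opposite strand, so reads there can be its own. Over all 13850 gene identifiers with as many such reads, 23.1% were apart and above and 8.58% apart and below, so 5 and 2 of 19 are near that background. With TMM factors applied, chosen after seeing the data, 3 genes stayed apart and above (H4C9, H2BC12 and H2AC6), against 18.4% of all, while H1-2 and H2BC5 overlapped. No test was run on these counts. The most abundant were opposite H4C9, at 19.0 ± 1.90 in shYES1 and 12.98 ± 0.695 in shNT (SD, n = 3 each), with 1423 reads in all beside 44 reads on the strand of H4C9. Opposite H1-2 there were 1.29 ± 0.0727 in shYES1 and 0.886 ± 0.280 in shNT. Opposite H2BC5 there were 0.704 ± 0.174 in shYES1 and 0.362 ± 0.167 in shNT. Opposite H2BC12 there were 0.550 ± 0.0625 in shYES1 and 0.358 ± 0.102 in shNT. Opposite H2AC6 there were 0.529 ± 0.0751 in shYES1 and 0.250 ± 0.152 in shNT. Opposite H1-10 there were 5.67 ± 0.389 in shYES1 and 8.73 ± 0.899 in shNT. For H2AX the values were 0.591 ± 0.0550 in shYES1 and 1.61 ± 0.716 in shNT. As a percent of reads on the gene's own strand, they were 11.5 in H1-10, 5.85 in H1-2 and 2.95 in H2AX. They were 2.26 in H2BC5, 1.91 in H2BC12 and 0.835 in H2AC6. These genes were picked because their groups did not overlap, and in each the reads moved in the direction of the gene itself. Among the rest of the 19, some moved against their gene, as in MACROH2A1 and H3-3B, with overlapping groups. Over all genes, 93.5% to 94.0% of stranded gene reads were in the reverse-strand column. The part of reads assigned to the wrong strand was not tested.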

How the results depend on the processing

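Over 47 genes and up to 14 alternatives, 598 of 656 log2 fold changes kept their direction and side of the threshold. Another 42 lost the call and 16 changed sign, all 16 in genes that were not called. The 47 include the variant not reported here. CCNE1, CCNE2 and DAXX are not among them, and their fold changes were not compared in this way. Falls of replication-dependent genes numbered 5 of 17 tested, 1 of 17 under scaling by library size and 1 of 17 with DESeq2. They numbered 3 of 55 tested with no low-count filter, and 2 to 5 when a library was left out. Over all genes, 4676 of 14239 fell, against 3762 of 14239 under scaling by library size. With DESeq2 4007 of 14239 fell, and with no low-count filter 4546 of 28980. Falls of variants numbered 8, and 4 under scaling by library size. Rises of 3′ end and transcription factors numbered 4, and 7 under scaling by library size. With DESeq2 they numbered 2, and when a library was left out 1 to 3. Rises of chaperones numbered 4, and 7 under scaling by library size. The replication-dependent share was 30.4% in shYES1 and 22.5% in shNT with the longest coding transcript, 66.4% and 59.5% with all H1 genes in the class, and 32.9% in shNT with unstranded counts. Changed signs were those of H3-3A (0.049 by library size), H4C8 (-0.0021 with limma-voom), H4C16 (-0.0050 with limma-voom, -0.00071 with a filter of 1 CPM in 3 libraries and -0.0016 with unstranded counts), and ranges over the left-out libraries that crossed 0 in H2BC18 (-0.15 to 0.53), H2BC21 (-0.0090 to 0.11), H3-3A (-0.086 to 0.0081), H4C8 (-0.11 to 0.13), H4C16 (-0.060 to 0.098) and H2BC11 (-0.22 to 0.0053). The cause was not tested.

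Libraries with the same replicate number did not deviate together (r = 0.01, 0.03 and 0.01 for the 3 numbers). The labels name no batch, and such correlations cannot show that none was shared. With the replicate number as a block, 5 replication-dependent genes rose and 5 fell, and 8 variants fell, and the lists gave 4 and 11, and 4 and 14. Depth limits genes under about 5 CPM, where standard errors reached 0.37.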
